A study of Homo sapiens with 8 samples.

Results

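CD44 (ENSG00000026508.16) encodes a cell surface receptor for hyaluronan, a sugar polymer of the extracellular matrix. The gene lies on the plus strand of human chromosome 11. All exon-skipping events with this gene symbol were taken from both deposited tables, which gave 51 of 82355 events in MCF10A and 68 of 98244 in HMLE TWIST. They describe 20 cassette exons, counting alternative ends of an exon separately. Of the 78 events found in either table, 41 had the same coordinates in both. A cassette exon here is an exon flanked by a named upstream and downstream exon, and an event is written in that order, so that C5-v3-v8 is exon v3 between C5 and v8.

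The libraries were made from polyadenylated RNA of 2 human breast lines. MCF10A is a non-tumorigenic breast epithelial line, and HMLE TWIST are immortalised breast epithelial cells with a retroviral TWIST gene, a transcription factor that drives epithelial cells towards a mesenchymal state. Over 24 hours each line received the solvent DMSO or 10 µM emetine, a plant alkaloid known to block protein synthesis, with 2 libraries in each of the 4 groups. The series concerns regulators of alternative splicing that bind RNA G-quadruplexes. In whole-series terms, the reads summed over all events of a table were 78412292 to 83483642 per library in MCF10A and 90031966 to 91259363 in HMLE TWIST.

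CD44 transcripts begin and end with constitutive exons, here C1 to C5 and C6 to C9. Between C5 and C6 lies a cluster of variable exons, v2 to v10, which can be joined in many combinations and lengthen the stem of the receptor outside the cell. The standard form, with C5 joined to C6, is typical of mesenchymal cells, and forms with variable exons are typical of epithelial cells. The splicing regulators ESRP1 and ESRP2 are known to favour the variable exons. Exon v3 carries an attachment site for heparan sulfate, v6 is known for the co-receptor role of CD44 with the kinase MET, and a form with v8, v9 and v10 is the common epithelial isoform.

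By GRCh37 coordinates of the deposited tables, C5 spans 35211382 to 35211612 and C6 spans 35236399 to 35236461. The variable exons between them are v2 (35218293 to 35218421, 129 nt), v3 (35219668 to 35219793, 126 nt), v4 (35222629 to 35222742, 114 nt), v5 (35223218 to 35223334, 117 nt) and v6 (35226059 to 35226187, 129 nt). They continue with v7 (35227659 to 35227790, 132 nt), v8 (35229652 to 35229753, 102 nt), v9 (35231512 to 35231601, 90 nt) and v10 (35232793 to 35232996, 204 nt). Each variable exon is a multiple of 3 nt long, so that skipping any of them keeps the length of the message in the same frame.

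The 4 exons to which C5 was joined most often, other than C6, are shown because the results turn on the choice among them. The letters come from the GENCODE 29 (GRCh38) transcript that holds the whole cluster, with exons matched to the events by order and length, and runs of 3 or more G are in capitals.
v3: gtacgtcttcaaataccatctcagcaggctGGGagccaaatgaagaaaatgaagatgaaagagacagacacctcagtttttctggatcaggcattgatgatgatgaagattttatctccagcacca
v6: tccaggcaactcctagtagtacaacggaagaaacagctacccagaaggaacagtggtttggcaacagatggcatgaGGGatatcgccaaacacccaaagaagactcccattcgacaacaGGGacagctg
v8: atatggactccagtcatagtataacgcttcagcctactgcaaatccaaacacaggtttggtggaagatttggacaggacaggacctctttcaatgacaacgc
v10: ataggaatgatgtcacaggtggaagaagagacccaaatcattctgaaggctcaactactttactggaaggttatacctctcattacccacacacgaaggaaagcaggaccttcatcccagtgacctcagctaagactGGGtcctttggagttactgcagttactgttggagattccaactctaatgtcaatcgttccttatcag
Exon v6 holds 2 such runs, v3 and v10 hold 1 each, and v8 holds none. Over the whole cluster, 6 of the 9 variable exons hold GGG on the transcript strand, and the same letters are in 72.8% of 110218 internal exons of 90 to 204 nt in GENCODE 29 coding transcripts. The flanking introns were not read here.

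Exons v5 and v7 each had a pair of acceptor sites 3 nt apart, in both cases an added CAG at the start of the exon. The first 40 bases of the longer forms are shown with that CAG in capitals.
v5: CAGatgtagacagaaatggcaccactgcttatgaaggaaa
v7: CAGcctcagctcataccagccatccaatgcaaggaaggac
Exon v3 also had a form of 99 nt that starts 27 nt further downstream, and C5 had a form of 138 nt with its donor 93 nt upstream, written C5-93d below.

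A deposited event lists reads that support inclusion and reads over the junction that skips the exon. An inclusion read lies over either junction of the exon, so it need not come from a molecule that holds both flanking exons. The inclusion level is the length-corrected share of inclusion, from 0 to 1. An event was tested where every library had at least 20 reads and the rarer form had at least 10, with a quasi-binomial model of the counts fitted over the whole table. It was called changed at a Benjamini-Hochberg adjusted p under 0.05 and a difference of level of at least 0.1. All events of a fit shared 1 dispersion in this model, so its small p-values are given beside those of limma on the log2 odds. Events of CD44 share junctions: C5-v3-v8 and C5-v6-v8 have the same skipping reads, so called events are not independent of each other.

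Skipping counts give the reads of each junction directly, and they were identical wherever a junction appeared in several events. They were used here to follow where the donor of C5 was joined. Shares per junction carry no test, since 2 libraries against 2 cannot give an exact permutation p under 0.333, and their Wilson 95% intervals cover counting error only.

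Under DMSO the cluster was used heavily in MCF10A and rarely in HMLE TWIST. Of the junction reads from the C5 donor, 70.8% (interval 69.4% to 72.2%, of 4066 reads) and 72.7% (71.4% to 74.0%, of 4483) went to a variable exon in the MCF10A libraries. In HMLE TWIST the shares were 3.29% (2.81% to 3.84%, of 4657) and 2.94% (2.46% to 3.51%, of 3977). The intervals of the lines lie far apart, and the C5-C6 junction of the standard form took 96.9% ± 0.243 (SD, n = 2) of the C5 reads in HMLE TWIST against 28.2% ± 1.39 in MCF10A.

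In MCF10A under DMSO the leading partner of C5 was v8, with 42.8% ± 3.86 of the reads. C6 followed with 28.2% ± 1.39, v6 with 15.7% ± 1.33 and v3 with 10.5% ± 0.721. The difference between each of these neighbours in the order was larger than the spread of the 2 libraries. The direct junctions to v4, v7, v9 and v10 took at most 1.84% each in either library, and C5-v5 had at most 1 read. In HMLE TWIST the small variable share was spread over v10 with 1.07% ± 0.201, v6 with 1.03% ± 0.213 and v3 with 0.690% ± 0.300. The v6 libraries overlapped with those of v10 and of v3, while v3 (0.902% and 0.478%) lay below v10 (0.923% and 1.21%) in both. Exon v8 took 0.244% ± 0.0108 there.

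**Figure D1:**
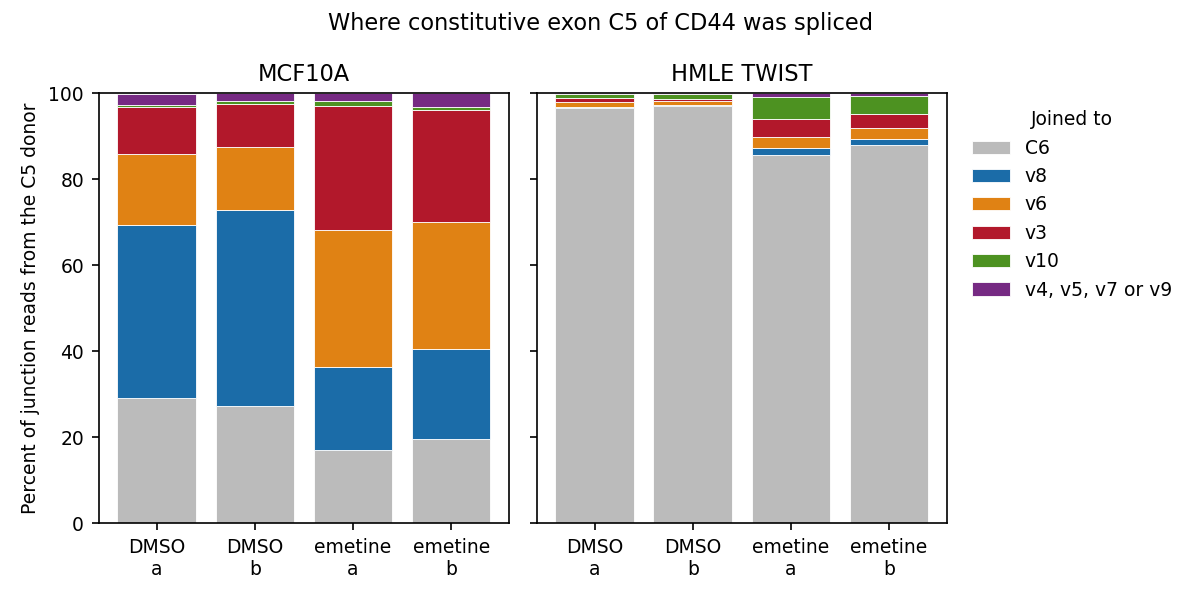
Stacked bars give, for each of the 8 libraries, the percent of junction reads from the C5 donor that were joined to C6 or to a variable exon, with the 2 libraries of a group called a and b. C6 fills 96.7% and 97.1% of the HMLE TWIST DMSO bars, and v3 and v6 take more of the MCF10A bars under emetine than under DMSO.

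Once v8 was entered, the end of the cluster was spliced in a nearly fixed order in MCF10A. Under DMSO v8 was joined there to v9 in 96.7% ± 0.266 of its exits, and v9 to v10 in 90.4% ± 1.08. The inclusion level of v9 between v8 and v10 was 0.989 in both libraries, and that of v10 between v9 and C6 was 0.917 and 0.904. In HMLE TWIST, v8 was joined to v9 in 93.6% ± 1.42 of far fewer reads (about 40 and 18). The v8-v9 counts there, 37.5 and 17.5, are medians of subtractions that disagreed. Exon v9 was joined to v10 there in 79.3% (interval 61.6% to 90.2%, of 29 reads) and 73.7% (51.2% to 88.2%, of 19) of its exits, below both MCF10A libraries (91.1% and 89.6%), and only the interval of the first meets theirs. The level of v10 between v9 and C6 was 0.912 and 0.921 in HMLE TWIST, with inclusion reads mostly over v10-C6 (101 and 102, against 23 and 14 over v9-v10). Neither v8-v9-v10 (adjusted p 0.689) nor v9-v10-C6 (0.941) passed the test between the lines.

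Entry into the middle of the cluster was less ordered. In MCF10A under DMSO v6 was reached from C5 in 69.3% ± 5.04 of its entries and from v5 in 29.8% ± 4.43. Exon v8 was reached from C5 in 62.0% ± 2.46, from v7 in 30.3% ± 1.92 and from v3 in 6.17% ± 0.594. Exon v3 left to v4 in 56.2% ± 1.17 and to v8 in 37.1% ± 0.476 of its exits.

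The level of an exon therefore depended on the pair of exons it was measured between. In MCF10A under DMSO v3 ranged from 0.147 between C5 and v8 to a level of 1 between v2 and v6 over 6 pairs. Exon v6 ranged from 0.106 between v3 and v8 to 0.994 between v5 and v8 over 5 pairs. Exon v8 stood at 0.439 between C5 and C6 and at 0.997 between C5 and v9. Exon v9 stood at 0.0971 between C5 and C6 and at 0.989 between v8 and v10, and v10 at 0.530 between C5 and C6 and at 0.992 between C5-93d and C6. That last level set v10-C6 reads of molecules from other donors against 10 and 12 reads from C5-93d to C6, with 0 reads from C5-93d to v10. In HMLE TWIST the C5-C6 pair gave the lowest level of v3 (0.00758), v6 (0.00626), v8 (0.00149), v9 (0.000691) and v10 (0.0174). Measured before another variable exon, the same exons reached 0.922 for v6 between C5 and v7 and 1 for v9 between v8 and v10. Exon v2 was low wherever it was listed, at 0.0144 between C5 and v6 and 0.0439 between C5 and v3 in MCF10A, and at 0.0862 between C5 and v3 in HMLE TWIST. Exon v4 stood at 0.980 to 0.995 over 3 pairs in MCF10A, and in HMLE TWIST none of its pairs had 20 reads in every library.

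The constitutive exons were included almost always. There were 11 events of C2 to C8 in MCF10A and 12 in HMLE TWIST, and apart from those of C3 no group mean was under 0.998. Exon C3 stood slightly lower under DMSO, at 0.992 ± 0.000257 in MCF10A and 0.982 ± 0.00566 in HMLE TWIST.

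The test of HMLE TWIST against MCF10A under DMSO covered 26 CD44 events, of which 10 were called, 2 higher and 8 lower in HMLE TWIST. Over all 19301 events of that fit 6.62% were called, 2.17% higher and 4.45% lower. The median difference was -0.0361 over the CD44 events and -0.00368 over all events. limma called 6 of the 26, all lower, where it called 0.187% of all events. The 8 lower events hold v3, v8, v9 or v10.

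The lower events were read between exons that include C6 or v10. Exon v10 between C5 and C6 was at 0.516 and 0.545 in the MCF10A libraries and at 0.0157 and 0.0191 in HMLE TWIST, a difference of -0.513 (adjusted p 0.0420 in limma). Exon v8 between C5 and C6 was at 0.416 and 0.462 against 0.00155 and 0.00142, a difference of -0.437 (0.0408). Between C5 and v10 it was at 0.976 and 0.971 against 0.113 and 0.0943, a difference of -0.870 (adjusted p 3.57e-63 by the quasi-binomial model, 0.0408 by limma).
Exon v8 also differed between v3 and C6, by -0.880 (3.63e-32 and 0.0408), and v9 between C5 and v10 by -0.793 (2.22e-62 and 0.0408). The v9 inclusion reads there were nearly all over v9-v10, with 2267 and 2530 in MCF10A against 23 and 14 in HMLE TWIST. C5-v9 itself had 5 and 7 reads against 2 and 1. Exon v3 between C5 and C6 was at 0.160 and 0.156 against 0.00924 and 0.00592, a difference of -0.151 (2.37e-198 by the quasi-binomial model, and 0.0651 by limma, which did not call it).
With the upstream donor C5-93d, v10 before C6 differed by -0.274 (7.34e-20 and 0.0420) and v8 before C6 by -0.667 (3.28e-09 and 0.0655). These levels do not show what C5-93d was joined to. From C5-93d there were 0 reads to v10 in every DMSO library. To v8 there were 7 and 10 in MCF10A and 0 and 4 in HMLE TWIST, and to C6 10 and 12 against 22 and 18. The v10 inclusion reads were those over v10-C6, 2513 and 2894 against 101 and 102. In all 8 events both HMLE TWIST libraries lay below both MCF10A libraries, which the rule for a call itself favours. The share over all events was not counted.

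The 2 higher events have v8 as the downstream exon. Exon v3 between C5 and v8 was at 0.161 and 0.134 in MCF10A and at 0.662 and 0.535 in HMLE TWIST, a difference of 0.451 (adjusted p 1.56e-10 by the quasi-binomial model, 0.0914 by limma). Exon v6 between C5 and v8 was at 0.179 and 0.147 against 0.718 and 0.661, a difference of 0.526 (7.38e-16 and 0.0756). Both were read from few reads in HMLE TWIST, with a C5-v8 skipping junction of 11 and 10 reads against 1629 and 2041 in MCF10A. In reads, C5-v3 itself was far lower in HMLE TWIST, with 42 and 19 against 446 in each MCF10A library. limma called neither.

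CD44 as a whole had fewer reads in MCF10A under emetine. The event C1-C2-C3 had 73.5 and 71.9 reads per 1000000 summed table reads under DMSO and 38.0 and 35.1 under emetine. For HMLE TWIST the values were 67.7 and 61.5 against 58.3 and 53.6. Summed table reads are not the library depth, since a read can count in several events, and these levels carry no test. In bulk RNA fewer cells with a transcript and less of it per cell cannot be told apart.

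In MCF10A under emetine C5 was joined less often to v8 and C6, and more often to v3 and v6. The C5-v8 share was 40.1% and 45.5% under DMSO and 19.3% and 21.0% under emetine, and the C5-C6 share went from 28.2% ± 1.39 to 18.3% ± 1.76. The C5-v3 share was 11% and 9.95% under DMSO and 28.9% and 26.0% under emetine, and C5-v6 went from 15.7% ± 1.33 to 30.6% ± 1.60. For each of these 4 junctions the groups did not overlap.

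Scaled to the summed table reads, the C5-v8 and C5-C6 junctions were lower under emetine, while C5-v3 and C5-v6 were at 1.18 and 0.873 times their DMSO means, with overlapping groups for both. C5-v8 went from 22.6 ± 2.63 to 4.75 ± 0.235 reads per 1000000, 0.210 times the DMSO mean, and C5-C6 from 14.9 ± 0.342 to 4.31 ± 0.0525, 0.289 times. C5-v3 was at 5.69 and 5.35 under DMSO and at 7.34 and 5.67 under emetine, and C5-v6 at 8.65 and 7.96 against 8.07 and 6.43. Junctions inside the front of the cluster were higher under emetine on the same scale, with v3-v4 at 3.39 ± 0.0928 against 5.76 ± 0.823 and v5-v6 at 3.57 ± 0.581 against 7.20 ± 0.920.

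**Figure D2:**
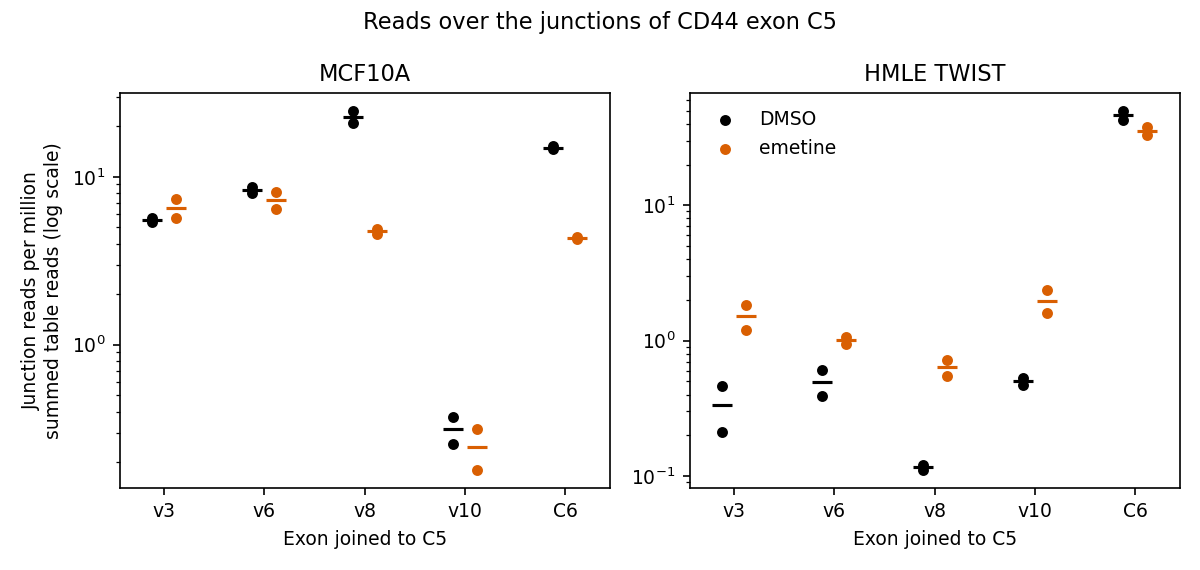
Points give reads per 1000000 summed table reads over the junctions from C5 to 5 exons on a log scale, 2 libraries per group, with bars at the group means. In MCF10A the emetine points of v8 and C6 lie near 4.75 and 4.31, far below DMSO, and in HMLE TWIST the emetine points of v3, v6, v8 and v10 lie above DMSO and those of C6 below.

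Of the 31 CD44 events tested in MCF10A, 7 were called, all towards higher inclusion under emetine. Over all 25522 events tested 13.8% were called, 8.37% higher and 5.48% lower. The adjusted p was under 0.05 for 20 of the 31, of which 18 rose, and for 36.5% of all events tested. The median change was 0.0239 over the CD44 events and -0.000168 over all events. limma called 4 of the 31, where it called 7.88% of all events. In each of the 7 the emetine libraries lay above the DMSO libraries, which the rule for a call itself favours. The share of such events over the whole fit was not counted.

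Exon v3, with the heparan sulfate site, rose between C5 and each of C6, v7 and v8. Between C5 and C6 it was at 0.160 and 0.156 under DMSO and at 0.459 and 0.399 under emetine, a change of 0.271 (adjusted p 4.49e-58 by the quasi-binomial model, 0.0359 by limma). Between C5 and v8 it changed by 0.275 (6.08e-76 and 0.0340). There both parts moved: skipping reads over C5-v8 went from 1629 and 2041 to 406 and 383, and inclusion reads over v3-v8 went from 178 and 184 to 47 and 35. Between C5 and v7 it was at 0.752 and 0.791 against 0.953 and 0.865, a change of 0.138 (4.69e-06 and 0.137). That last call was lost in limma, without the first listed emetine library (0.0938, adjusted p 0.0509) and without length correction (0.0810, under the size for a call). Between C5 and v6 it went from 0.252 ± 0.00505 to 0.310 ± 0.00471, under the size needed for a call (0.00268).

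Exon v6, known from MET signalling, rose between C5 and v8 from 0.179 and 0.147 to 0.459 and 0.416, a change of 0.275 (adjusted p 1.85e-73 by the quasi-binomial model, 0.0367 by limma). Exon v5 in its 120 nt form rose between C5 and v6 from 0.155 and 0.200 to 0.327 and 0.337, a change of 0.155 (3.70e-19 and 0.105). Its inclusion reads were those over v5-v6, since C5 was hardly ever joined to v5 directly. Exon v7 rose between v3 and v8 from 0.708 and 0.719 to 0.923 and 0.929, a change of 0.213 (7.98e-23 and 0.0250). Its inclusion reads were nearly all over v7-v8, with 854 and 925 under DMSO and 1126 and 914 under emetine. The v3-v7 junction itself fell from 10 and 15 reads to 3 and 3, and v3-v8 from 178 and 184 to 47 and 35. The rise of level is therefore not a rise in joining v3 to v7.

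Exon v10 rose between C5 and C6 from 0.516 and 0.545 to 0.670 and 0.654, a change of 0.132 (adjusted p 3.72e-15 by the quasi-binomial model, 0.210 by limma). Its inclusion reads were nearly all over v10-C6, which fell from 2513 and 2894 to 1431 and 1335. On the scale of summed table reads v10-C6 was at 0.499 times its DMSO mean, and the skipping junction C5-C6 at 0.289 times. C5-v10 had 20 and 31 reads, then 26 and 15, so joining C5 to v10 did not clearly rise. Exon v8 between C5 and C6 moved the other way, from 0.416 and 0.462 to 0.369 and 0.357. That change of -0.0760 passed the test (0.000410) but not the size for a call. Exon v9 between C5 and C6 was at 0.0844 and 0.110 against 0.0931 and 0.103 (0.972), with overlapping groups. At the 3' end of the cluster the changes were under the size for a call, though some passed the quasi-binomial test. Exon v10 between v9 and C6 went from 0.911 ± 0.00898 to 0.944 ± 0.00536 (0.000413 by the quasi-binomial model, 0.261 by limma). Exon v8 between C5 and v10 changed by -0.0652 (0.000196 and 0.0539). Exon v9 between v8 and v10 went from 0.989 ± 0.000508 to 0.994 ± 0.00338 and did not pass (0.204 by the quasi-binomial model).

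The way into v8 and v6 differed as well, again as shares without a test. In MCF10A v8 was reached from v7 in 31.6% (interval 29.9% to 33.4%, of 2702 reads) and 28.9% (27.4% to 30.5%, of 3201) of its entries under DMSO. Under emetine the shares were 70.2% (67.9% to 72.4%, of 1604) and 68.0% (65.5% to 70.4%, of 1344). The share from C5 went from 62.0% ± 2.46 to 26.9% ± 2.25. Exon v6 was reached from v5 in 29.8% ± 4.43 under DMSO and 49.7% ± 0.844 under emetine. Exon v3 left to v4 in 56.2% ± 1.17 against 90.7% ± 0.684 and to v8 in 37.1% ± 0.476 against 7.74% ± 0.509. None of these pairs of groups overlapped, and each of the larger shares under emetine is a junction between neighbouring variable exons.

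**Figure D3:**
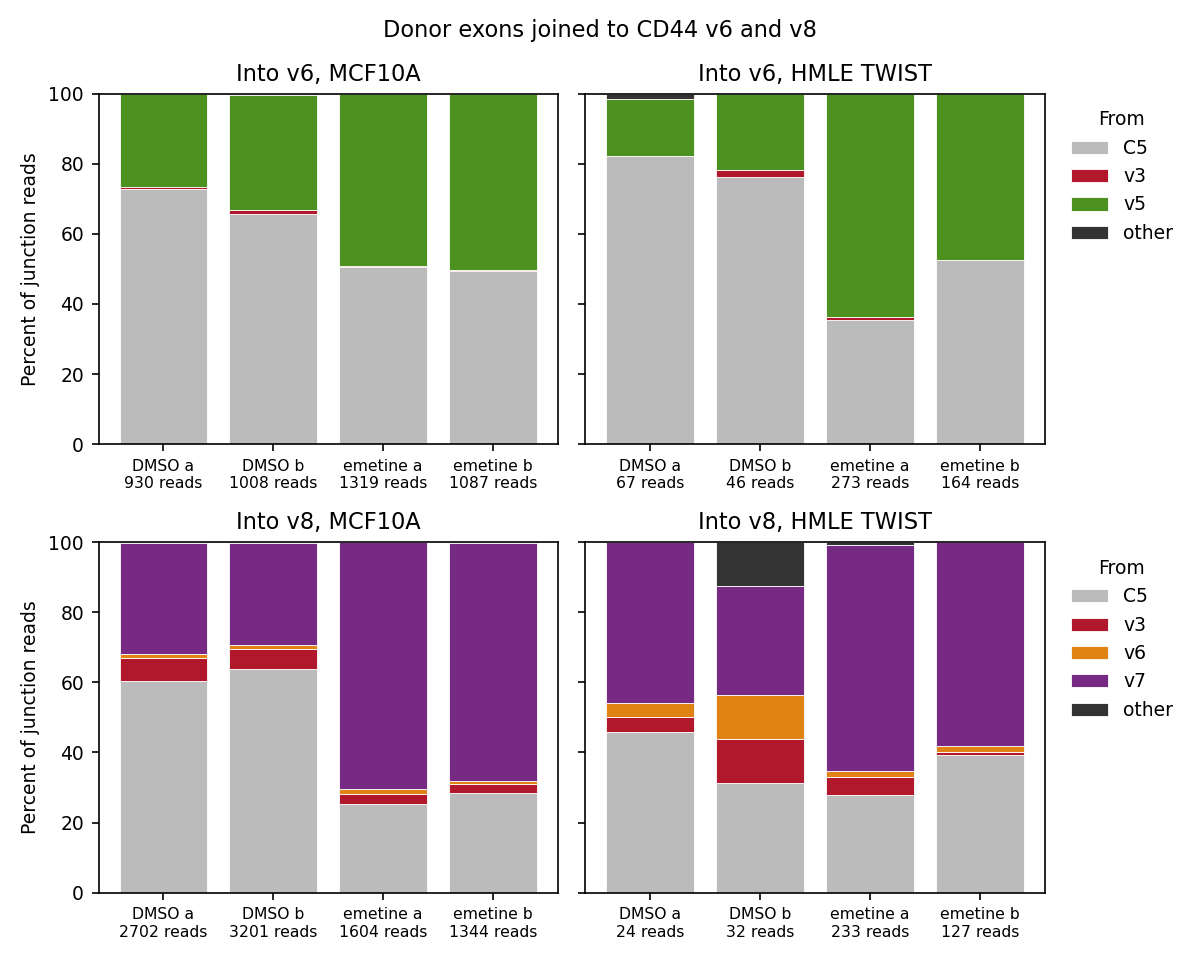
Stacked bars give the percent of junction reads into v6 (top) and v8 (bottom) that came from each donor exon, per library, with the number of reads under each bar. In MCF10A the v7 part of the v8 bars is 31.6% and 28.9% under DMSO and 70.2% and 68.0% under emetine, and the HMLE TWIST DMSO bars rest on 24 to 67 reads.

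The tandem acceptors gave small differences between the groups. After v4 the CAG-extended form of v5 took 65.6% and 53.1% of the MCF10A reads under DMSO and 59.2% and 59.0% under emetine. The 3 nt shorter form of v7 took 11.7% and 10.7% under DMSO and 14.5% and 12.3% under emetine after v6. In HMLE TWIST only the emetine libraries had enough reads, with 55.0% and 61.6% for the extended v5 and 13.6% and 7.41% for the shorter v7. In MCF10A the v5 groups overlapped and the v7 groups did not, and no test was made.

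In HMLE TWIST under emetine the cluster was used more than its low level under DMSO. The variable share of the C5 reads was 3.29% and 2.94% under DMSO and 14.3% (13.2% to 15.4%, of 3986) and 12% (10.9% to 13.1%, of 3392) under emetine. The largest shares were those of v10, from 0.923% and 1.21% to 5.34% and 4.25%, and v3, from 0.902% and 0.478% to 4.16% and 3.18%. Exon v6 went from 1.03% ± 0.213 to 2.48% ± 0.0720 and v8 from 0.244% ± 0.0108 to 1.55% ± 0.111. C5-v4 had no read under DMSO, with upper interval limits of 0.0824% and 0.0965%, and 12 and 11 reads under emetine.

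Reads inside the cluster were higher under emetine too. C5-v10 was at 0.502 ± 0.0438 reads per 1000000 summed table reads under DMSO and 1.97 ± 0.536 under emetine, and v7-v8 at 0.116 ± 0.00669 against 1.24 ± 0.591. C5-C6 went from 46.1 ± 4.58 to 35.3 ± 3.32, 0.766 times. The 2 emetine libraries differed from each other more than the DMSO pair did: v5-v6 had 174 and 78 reads under emetine and 11 and 10 under DMSO. No groups overlapped in these junctions. Exon v8 was reached from v7 in 45.8% and 31.2% of only 24 and 32 entries under DMSO and in 64.4% and 58.3% of 233 and 127 under emetine, with no overlap of the groups. The counting intervals meet for the first listed libraries (27.9% to 64.9% and 58.0% to 70.2%) and not for the second (18% to 48.6% and 49.6% to 66.5%).

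Of the 31 CD44 events tested in HMLE TWIST, 6 were called, 4 higher and 2 lower under emetine. Over all 30290 events tested 15.0% were called, 6.66% higher and 8.32% lower. The adjusted p was under 0.05 for 13, of which 11 rose, and for 39.8% of all events tested. The median change was 0.0273 over the CD44 events and -0.00315 over all events. limma called 4 events, 3 higher and 1 lower, where it called 9.94% of all events. Only the 2 forms of v5 were called by both. limma's others were v7 between v6 and v8 (0.171, adjusted p 0.0414 by limma and 0.0611 by the quasi-binomial model) and v3 between C5 and v4 (-0.139, 0.0349 and 0.0696), both with 20 to 23 reads in their shallowest library.

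The small changes against the C5-C6 junction were the deepest. Exon v10 between C5 and C6 was at 0.0157 and 0.0191 under DMSO and at 0.0989 and 0.0776 under emetine, a change of 0.0708 (adjusted p 7.55e-93 by the quasi-binomial model, 0.0222 by limma). It passed the test but not the size for a call. The same held for v3 (0.00924 and 0.00592 against 0.0287 and 0.0242) and v8 (0.00155 and 0.00142 against 0.00985 and 0.00831), each between C5 and C6. Their adjusted p was 7.75e-19 and 9.95e-11 by the quasi-binomial model, 0.0467 and 0.0184 by limma. Exon v6 between C5 and C6 was at 0.00673 and 0.00580 against 0.0188 and 0.0157. It passed by the quasi-binomial model (adjusted p 1.83e-09) and not by limma (0.0635).

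The called rises rested on fewer reads. Exon v5 between C5 and v6 went from 0.0909 and 0.125 to 0.476 and 0.312, a change of 0.286 (adjusted p 5.25e-07 by the quasi-binomial model, 0.0387 by limma), listed with the same reads for the 117 nt and 120 nt forms. Nearly all inclusion reads of v5 were over v5-v6 (11 and 10, then 174 and 78). Exon v10 between v3 and C6 went from 0.558 and 0.656 to 0.882 and 0.817, a change of 0.243 (2.00e-06 and 0.0546). Its inclusion reads were nearly all over v10-C6, 101 and 102 under DMSO and 537 and 358 under emetine. The v3-v10 junction had 5 and 1 reads, then 1 and 0, and v3-C6 had 42 and 27, then 36 and 40. The joining of v3 to v10 did not rise. Exon v3 between C5 and v6 went from 0.276 and 0.222 to 0.464 and 0.386, a change of 0.176 (0.0103 and 0.127). The groups of each of these did not overlap. The call on v3 was lost without either DMSO library and without the first listed emetine library (adjusted p 0.0623 to 0.103).

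The 2 falls were of v6. Between C5 and v8 it went from 0.718 and 0.661 to 0.437 and 0.468, a change of -0.237 (adjusted p 0.0138 by the quasi-binomial model, 0.0760 by limma). Between C5 and v10 it went from 0.390 and 0.267 to 0.187 and 0.234, a change of -0.118 (0.0248 and 0.255). Reads over C5-v6 themselves were higher under emetine, 97 and 86 against 55 and 35. The skipping junctions were higher by more, C5-v8 with 65 and 50 against 11 and 10, and C5-v10 with 213 and 144 against 43 and 48. Neither fall was called without the first listed DMSO library (-0.208, adjusted p 0.179, and -0.0566, 0.476). The fall before v8 was not called without the second listed DMSO library either (-0.265, 0.0521), nor the fall before v10 without the first listed emetine library (-0.0946, 0.160) or with its own dispersion (0.0829).

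**Figure D4:**
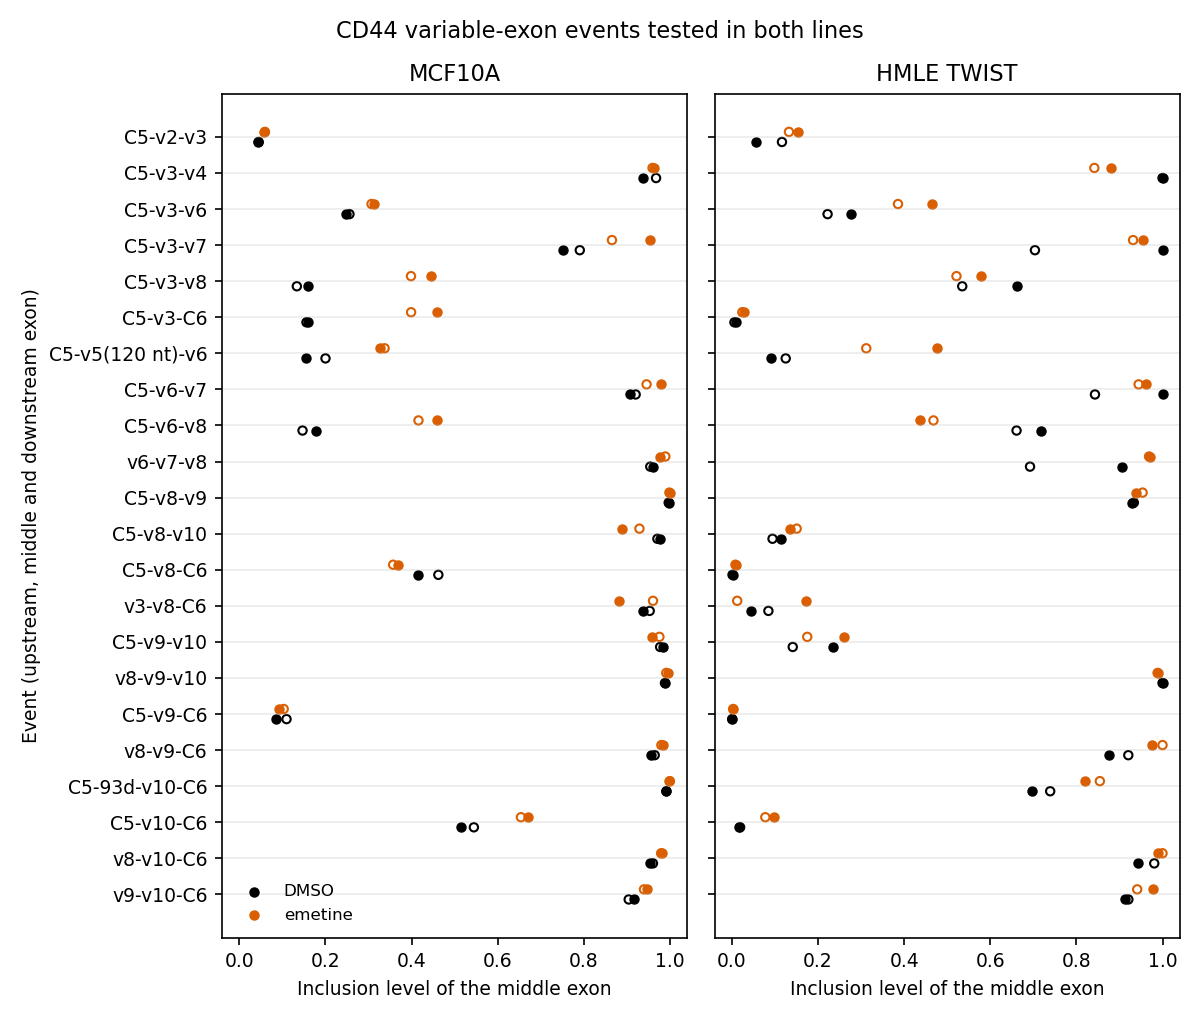
Points give the inclusion level of the middle exon in each library for the 22 variable-exon events tested over both lines, ordered along the gene, with filled and open circles for the first and second listed library. In MCF10A the emetine points lie to the right of DMSO for v3 before v7, v8 or C6 and for v5 and v6, and v6 between C5 and v8 moves in opposite directions in the 2 lines.

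The line-by-emetine term was tested on 27 CD44 events over all 8 libraries, and 3 were called, where 1.88% of 31825 events were called, 0.606% with a higher change in HMLE TWIST and 1.28% with a lower one. Exon v6 between C5 and v8 changed by 0.275 in MCF10A and -0.237 in HMLE TWIST, a difference of -0.511 (adjusted p 3.18e-10 by the quasi-binomial model, 0.197 by limma). Exon v3 between C5 and v8 changed by 0.275 and -0.0485, a difference of -0.324 (0.000223 and 0.273). Exon v8 between C5 and v10 changed by -0.0652 and 0.0393, a difference of 0.105 (0.0100 and 0.264). limma called none of the 27 and 0.0% of all events. Its unadjusted p was under 0.05 for 7 of the 27 and for 4058 of all events. The difference for v3 was not called without the first listed HMLE TWIST DMSO library (-0.260, 0.181) or with the event's own dispersion where larger than the shared one (0.0850). That for v8 was not called without length correction (0.0971, under the size for a call), or without the first listed MCF10A emetine library (0.0838, 0.213), the second listed HMLE TWIST DMSO library (0.0950, 0.115) or the second listed HMLE TWIST emetine library (0.0973, 0.0233).

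The model tests odds, while the size is a difference of levels, and the 2 scales part where a level is near 0. Exon v3 between C5 and C6 changed by 0.271 in MCF10A and 0.0189 in HMLE TWIST, yet the term on the odds did not pass (0.810). Exon v10 between C5 and C6 changed by 0.132 and 0.0708 and passed (1.25e-23), with the larger rise of level in MCF10A and the larger rise of odds in HMLE TWIST. These contrasts share the DMSO libraries with the comparison of the lines, so the values are set side by side and no overlap is counted.

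The labels of the lines were set beside marker genes, taking the deepest event of each gene, in reads per 1000000 summed table reads. Of 10 epithelial markers, 7 had an event in MCF10A, with sums of 801 and 778 under DMSO and 519 and 510 under emetine, and 4 had one in HMLE TWIST, with sums of 0.756 to 1.37. Of 9 mesenchymal markers, 5 had an event in MCF10A, with sums of 341 and 362 under DMSO and 78.2 and 83.2 under emetine, and 9 in HMLE TWIST, with sums of 1988 to 4053. VIM alone made up most of the MCF10A sums, with 318 and 340 under DMSO and 71.6 and 76.0 under emetine. PTPRC was at 0.0221 or less and PECAM1 had no event.

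Reads of the regulators ESRP1 and ESRP2 were lower under emetine in MCF10A and near 0 in HMLE TWIST. ESRP1 was at 13.3 and 11.3 in MCF10A under DMSO and 4.54 and 5.28 under emetine, and at 0.0992 or less in HMLE TWIST. ESRP2 was at 9.49 and 8.19, then 2.99 and 2.83, and at 0.0663 or less in HMLE TWIST. CDH1, the epithelial cadherin, was at 17.4 and 18.8, then 4.24 and 4.65, and at 0.0772 or less. CLDN1, a tight junction claudin, went the other way in MCF10A, from 7.27 and 8.39 to 65.0 and 56.4. The keratin KRT5 made up most of the epithelial sum, with 669 and 651 under DMSO and 389 and 369 under emetine, and KRT8 was at 71.9 and 67.8 against 47.2 and 64.2. Of the 7 epithelial markers with an event in MCF10A, 6 were lower in both emetine libraries than in both DMSO libraries and CLDN1 was higher. The same count was not made over all genes. VIM, a mesenchymal filament, was at 2086 and 2019 in HMLE TWIST under DMSO and 1147 and 1059 under emetine. FN1, ZEB1, SPARC, COL1A1, COL1A2 and PDGFRB were also lower there in both emetine libraries. ZEB2 went the other way, from 3.05 and 3.04 to 5.49 and 4.15. CDH2 was at 5.17 and 4.37 against 6.62 and 4.53, with overlapping groups. The part of these genes in the CD44 levels was not tested.

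Among 22 genes known to regulate CD44 splicing, 86 events of 21 genes were tested in MCF10A, 4 called higher and 5 lower, 10.5% of them against 13.8% of all events. In HMLE TWIST 87 events of 19 genes were tested, 7 called higher and 8 lower, 17.2% against 15.0%. HNRNPH1, a G-run binding protein, had an exon of 92 nt that went from 0.894 and 0.906 to 0.313 and 0.416 in MCF10A, and its change was -0.535 there and -0.538 in HMLE TWIST. SRSF3, an SR protein, had an exon of 456 nt that rose by 0.510 and 0.469. SRRM1, a splicing coactivator, had one of 130 nt that rose by 0.428 and 0.342, and TRA2A one of 90 nt that fell by 0.254 and 0.280. In addition SRSF1 changed by -0.148 in MCF10A, and PTBP1 by 0.153 and TRA2B by 0.148 in HMLE TWIST. Between the lines under DMSO 2 of 60 events were called, both lower in HMLE TWIST, 3.33% against 6.62% of all events. They were in SMARCA2 (-0.125) and in HNRNPH1 (-0.207), there an exon of 179 nt and not the one of 92 nt. The 92 nt exon was at 0.893 and 0.935 in HMLE TWIST under DMSO. For the line-by-emetine term 1 of 91 was called, in RBFOX2 (-0.127), 1.10% against 1.88%.

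Among 27 ligands, partners and proteases of CD44, 60 events of 17 genes were tested in MCF10A, with 1 called higher and 3 lower, 6.67% against 13.8% of all events. They were in NF2 (-0.204), whose product merlin binds the CD44 tail, in MET (-0.146) and in ANK3 (0.140), an ankyrin. In HMLE TWIST 3 of 65 were called, 4.62% against 15.0%, all higher, in FN1 (0.108), HMMR (0.107), another hyaluronan receptor, and IQGAP1 (0.106). Between the lines under DMSO 5 of 34 were called, 2 higher and 3 lower, 14.7% against 6.62%, with NF2 at 0.868 and 0.790 in MCF10A and 0.243 and 0.255 in HMLE TWIST (-0.580). FN1 (0.238) and HMMR (-0.184) were the others. That FN1 value is for an exon of 273 nt, and the FN1 value under emetine in HMLE TWIST for one of 270 nt. For the line-by-emetine term 3 of 55 were called, in NF2 (0.283) and MET (-0.113), 5.45% against 1.88%. That MET value is for an exon of 50 nt, and the MET value in MCF10A for one of 154 nt.

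Among the 27 CD44 events tested over all 8 libraries, the one with the widest range was v8 between v3 and C6, with a range of 0.948. The event C5-93d-v8-C6 ranged further, from 0 to 1, but its shallowest library held 15 reads and it was outside that test. The level of v8 between v3 and C6 was 0.937 and 0.953 in MCF10A under DMSO, 0.882 and 0.961 under emetine, 0.0455 and 0.0847 in HMLE TWIST under DMSO, and 0.172 and 0.0123 under emetine. Compared with 31798 events of 8031 other genes by the mean absolute difference of level over the 8 libraries, the nearest were exons of SLC37A2 (0.0796), SUN1 (0.114), DNM2 (0.130), SEPT6 (0.142) and DRAM2 (0.150). The SLC37A2 exon of 57 nt was at 0.917 in MCF10A and 0.0739 in HMLE TWIST under DMSO, and the SUN1 exon of 84 nt at 0.962 and 0.125. Both were high in MCF10A and low in HMLE TWIST, and the measure says nothing of how the exons are regulated.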

How the data were processed

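RNA was sequenced from 8 libraries, 2 for each line and treatment, and the series describes the 2 as biological replicates. The aligner STAR 2.5.3a and the build GRCh37 are named in the submitters' processing notes. The deposited tables are in the rMATS format for skipped exons, per the file headers, 1 per line, and the rMATS version is not given in the sources used here. Their deposited inclusion and skipping junction counts hold the 2 libraries of a group in a cell without a replicate number, so libraries are called first and second listed. Sample 1 was taken as DMSO and sample 2 as emetine, from the order in the table names. The authors' p-value and FDR, and their difference score (sample 1 minus sample 2), are deposited too and were not used for calls. The 4 columns of deposited inclusion levels were not used. The lengths in the tables are 99 for the skipping form and 100 to 198 for the inclusion form.

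Inclusion levels were recomputed from the counts and matched the deposited difference within 0.000929 for CD44. Tests used R 4.3.3 with limma 3.58.1 (squeezeVar on the dispersions, floored at 1, two-sided), with Benjamini-Hochberg adjustment over all events of a fit. The shared dispersion was 1.97 in MCF10A, 1.95 in HMLE TWIST, 1.95 between lines and 1.84 for the line-by-emetine term. The limma alternative added 0.5 to each count. Junctions with no skipping count of their own were obtained by subtracting skipping counts from inclusion counts. Where events gave different values, their median was taken. Sums of such junctions missed an inclusion count in a library by up to 135 reads in MCF10A (v9-v10-C6). In HMLE TWIST the largest gap was 995 reads (C3-C4-C5), with 8 for v8-v9-C6. Tables, shares and intervals were made with pandas 2.3.3 and scipy 1.17.1. The scripts were tested on simulated data. Libraries of a group had identical counts in 0.499% to 1.05% of events, so each counted as its own sample. CD44, the gene lists, markers, rules and tests were chosen with earlier results of these data known. Every called CD44 event was described in full, but only some of the deepest events per exon, and from the gene lists at most 6 called genes each.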

Additional observations from a re-analysis of the deposited data

Results flagged for a closer look

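The line-by-emetine test singled out 5 of 27 CD44 events at an adjusted p under 0.05, where 3.22% of all events passed. Each is given as the change in HMLE TWIST minus the change in MCF10A. Exon v6 between C5 and v8 differed by -0.511 and v3 between C5 and v8 by -0.324. Exon v8 differed by 0.105 between C5 and v10 and by 0.0836 between C5 and C6. Exon v10 between C5 and C6 differed by -0.0608 in level, while its odds rose more in HMLE TWIST. The adjusted p-values of the quasi-binomial model ran from 1.25e-23 to 0.0100, and limma gave 0.197 to 0.350 for the same events.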

How the results depend on the processing

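No paired analysis was possible because the deposited columns carry no replicate number. The 26 called CD44 results kept their direction in every repeat that still tested them, and 258 of those 289 repeats kept the call. Results no longer tested are not in the 289, and a minimum of 50 reads left only 17 of the 26. The looser minima of 10 and 1 reads are in it and kept all 26. limma kept 12 of the 26 and lost 14. limma on the log2 odds gave 4 calls in place of 7 in MCF10A, 6 in place of 10 between the lines and 0 in place of 3 for the line-by-emetine term, where its count over all events was also 0. A minimum of 50 reads in every library left 3 of 6 calls in HMLE TWIST, 6 of 10 between the lines and 1 of 3 for the line-by-emetine term, with 17, 13 and 15 events tested. Leaving out each library in turn gave 6 to 7 calls in MCF10A, 3 to 7 in HMLE TWIST, 10 to 11 between the lines and 2 to 4 for the term, with a lone library assumed to vary like the others. The lowest of the HMLE TWIST counts came without the first listed DMSO library, which left v5 between C5 and v6 in both forms and v10 between v3 and C6. Taking an event's own dispersion where it was larger gave 5 calls in HMLE TWIST, without v6 between C5 and v10 (adjusted p 0.0829), and 2 for the term, without v3 between C5 and v8. Without length correction v3 between C5 and v7 in MCF10A (0.0810) and the term for v8 between C5 and v10 fell under the size for a call, and v10 between C5 and C6 in HMLE TWIST passed it (0.128). Counting full residual degrees of freedom for groups at 0 or 1, an alternative chosen after seeing the data, gave 5 calls in HMLE TWIST and the same numbers elsewhere. The C5-C6 share was 28.1%, 17.9%, 96.9% and 86.9% with the junctions obtained by subtraction added, in MCF10A under DMSO and emetine and HMLE TWIST under DMSO and emetine. Depth limits HMLE TWIST, where the shallowest library of a called event held 45 reads for emetine against DMSO and 23 for the comparison of the lines.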
